A study of Mus musculus with 2 samples.

Results

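The cells described here were monocytes of mouse melanomas that carried Ly6c2 and, at the same time, the chemokine transcript Cxcl10 (ENSMUSG00000034855). They were chosen from 9798 cells with 500 to 15000 UMIs (unique molecular identifiers, each counting 1 captured transcript), 200 to 4000 detected genes and at most 10% mitochondrial UMIs. A cell entered the monocyte gate with at least 2 UMIs of Ly6c2, at least 1 UMI in 2 or more of the 5 genes Plac8, Vcan, Ms4a4c, Chil3 and Ccr2, and no UMI of the 5 genes Ace, Adgre4, Cd3e, Ncr1 and Cxcr2. Gated cells with at least 1 UMI of Cxcl10 are called Cxcl10+ monocytes below, and those with none Cxcl10- monocytes. There were 210 Cxcl10+ and 1326 Cxcl10- monocytes. The control library held 125 Cxcl10+ and 522 Cxcl10- monocytes among 5292 filtered cells. The NK cell-depleted library held 85 and 804 among 4506.

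The study sorted live CD45+ leukocytes on day 4 after C57BL/6 mice, 8 weeks old, had been injected with Ptgs-/- Braf-mutant melanoma cells, which lack both cyclooxygenase genes and hence the prostaglandin E2 that these enzymes make. Control hosts were untreated, and NK cell-depleted hosts received 200 µg of anti-NK1.1 (clone PK136) and 30 µg of anti-asialo GM1 on days 0 and 2. Both groups carried the same knockout tumors, so no tumor with intact cyclooxygenases entered the comparison, although the genotype label of both samples reads wildtype where their titles and the series design say knockout. Tumors were pooled before sorting, parental melanoma cells were spiked in, and each group was 1 library, so treatment and library cannot be told apart and no test between groups was possible. The intervals given are 95% exact intervals on counts and cover counting error only.

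Classical monocytes of the mouse leave the blood through Ccr2, carry high Ly6c2, and turn into macrophages or dendritic-cell-like cells within inflamed tissue. Cxcl10 is a chemokine that draws T cells and NK cells bearing the receptor Cxcr3. Its transcription is driven by IFN-gamma, by type I interferon and by NF-kB.

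These routes act through short DNA motifs, and the promoters of Cxcl10 and of 4 genes that stood higher in Cxcl10+ monocytes of both libraries are printed to show where such motifs lie. Each line gives the 220 bases before the RefSeq transcription start, 5′ to 3′ on the gene's own strand, in GRCm38.p6. Capitals mark every match, on either strand, to GAAANNGAAA (the core of an interferon-stimulated response element), TTCNNNGAA (a gamma-activated site) or GGGANNTTCC (an NF-kB site). Cxcl10 is at chr5:92348890-92349109 on the minus strand. Rsad2, an antiviral radical-SAM enzyme, is at chr12:26456453-26456672 on the minus strand. Ifit1, an inhibitor of viral RNA translation, is at chr19:34640669-34640888 on the plus strand. Ifi205, a DNA-binding PYHIN protein, is at chr1:174031756-174031975 on the minus strand. Igtp, an immunity-related GTPase, is at chr11:58199336-58199555 on the plus strand.
Cxcl10: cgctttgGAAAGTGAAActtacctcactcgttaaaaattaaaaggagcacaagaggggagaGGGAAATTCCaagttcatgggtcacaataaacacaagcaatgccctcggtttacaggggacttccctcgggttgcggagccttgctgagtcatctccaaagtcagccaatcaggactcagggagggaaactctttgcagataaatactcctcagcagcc
Rsad2: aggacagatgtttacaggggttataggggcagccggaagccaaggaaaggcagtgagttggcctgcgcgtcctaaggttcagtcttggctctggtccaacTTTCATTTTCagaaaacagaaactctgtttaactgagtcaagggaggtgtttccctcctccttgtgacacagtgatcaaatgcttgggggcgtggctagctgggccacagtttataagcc
Ifit1: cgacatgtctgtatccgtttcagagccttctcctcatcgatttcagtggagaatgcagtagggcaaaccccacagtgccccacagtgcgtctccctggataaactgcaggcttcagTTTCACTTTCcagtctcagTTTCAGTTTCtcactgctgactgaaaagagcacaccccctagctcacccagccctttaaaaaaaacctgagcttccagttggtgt
Ifi205: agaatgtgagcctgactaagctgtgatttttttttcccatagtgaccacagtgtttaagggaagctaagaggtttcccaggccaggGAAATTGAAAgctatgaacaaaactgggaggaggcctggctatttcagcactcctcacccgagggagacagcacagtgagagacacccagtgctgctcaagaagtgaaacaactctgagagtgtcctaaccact
Igtp: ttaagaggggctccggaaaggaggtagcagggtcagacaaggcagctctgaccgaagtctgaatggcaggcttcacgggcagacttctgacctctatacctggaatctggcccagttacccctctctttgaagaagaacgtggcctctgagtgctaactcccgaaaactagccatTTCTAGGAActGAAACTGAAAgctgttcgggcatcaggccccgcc
The Cxcl10 promoter held one GAAANNGAAA match, starting at -213, and one GGGANNTTCC match, starting at -159. Rsad2 held one GAAANNGAAA match at -120, Ifit1 a pair at -104 and -85, and Ifi205 one at -134. Igtp held GAAANNGAAA at -34 beside TTCNNNGAA at -45. These genes were printed because they hold a match. GAAANNGAAA was in 25 of the 87 promoters of genes higher in Cxcl10+ monocytes of both libraries (28.7%), and it was not found within 250 bases of the listed starts of Ifit2, Oasl1, Cmpk2 and Ccl12, which also stood higher. A match is a description of the letters and no evidence of binding.

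Among 27025 genes with a promoter in the RefSeq table, 3.46% had GAAANNGAAA within 250 bases of the start, 8.13% had TTCNNNGAA and 1.36% had GGGANNTTCC. The type I interferon list used here (63 measured genes, 52 with a promoter) had GAAANNGAAA in 44.2% and TTCNNNGAA in 9.62%. In the IFN-gamma list (47 measured genes, 29 with a promoter), GAAANNGAAA was in 44.8% and TTCNNNGAA in 37.9%. Both lists thus carried the response element motif in a like share of promoters, and they stood apart in the gamma-activated motif. A list of 32 NF-kB response genes had GAAANNGAAA in 0 of 27 promoters and GGGANNTTCC in 2 of 27.

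By classical monocyte genes the gated cells matched their label. The 32 genes of a classical monocyte list that the gate did not use summed to 21283 CPM (counts per 1000000 UMIs of the same cells) in control Cxcl10+ monocytes, 21942 CPM in control Cxcl10- monocytes and 15963 CPM in all control cells outside the gate. The NK cell-depleted values were 24806, 24697 and 17908 CPM, and 22 and 25 of the 32 genes in Cxcl10+ monocytes of the respective libraries lay above the cells outside the gate. Ly6c2 itself stood at 2666 CPM in control Cxcl10+ against 1639 CPM in Cxcl10- monocytes, and at 2472 against 1660 CPM after NK cell depletion. Plac8 was likewise higher in Cxcl10+ monocytes (3286 against 2352 CPM and 2647 against 1864 CPM), while the proteoglycan gene Vcan was not (197 against 206 CPM and 141 against 177 CPM). Chil3, a chitinase-like gene of monocytes and alternatively activated macrophages, stood at 309 and 315 CPM in the control Cxcl10+ and Cxcl10- cells, but at 316 and 754 CPM in the NK cell-depleted ones.

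Markers of other cells were present in the gate as well. The neutrophil list summed to 213 and 221 CPM in Cxcl10+ monocytes of the control and NK cell-depleted libraries, against 1623 and 2467 CPM outside the gate. The macrophage list summed to 16791 and 12907 CPM, below the 19457 and 17485 CPM outside the gate. Of its 34 genes, 14 in control and 9 after depletion nonetheless lay above the cells outside the gate. In control Apoe stood at 3296 against 2674 CPM outside and C1qb at 1080 against 839 CPM, while Pf4 stood at 365 against 1769 CPM. Dendritic cell genes summed to 1612 and 1192 CPM, above the 1290 CPM outside the gate in control and below the 1537 CPM after depletion. T cell genes summed to 83.9 and 13 CPM, against 461 and 310 CPM outside. B cell genes summed to 220 and 219 CPM with 8 of 11 at 0 in control, above the 203 and 216 CPM outside. Of these sums Ighm gave 204 and 212 CPM. Melanoma genes summed to 71.3 and 52.1 CPM with 10 of 12 at 0, against 87.4 and 73.3 CPM outside. NK cell genes, the check of the depletion, differed between the libraries. Outside the gate, 15 NK cell genes summed to 1163 CPM in control cells and 84.5 CPM in NK cell-depleted ones. The same genes summed to 178 CPM in control Cxcl10+ monocytes, 116 CPM in control Cxcl10- monocytes, 27.9 CPM in NK cell-depleted Cxcl10+ monocytes (13 of 15 genes at 0) and 46.5 CPM in the Cxcl10- ones. At least 3 UMIs of these genes were found in 10 of 125 control Cxcl10+ monocytes and in 0 of 85 NK cell-depleted ones. In Cxcl10- monocytes they were found in 17 of 522 control and 23 of 804 NK cell-depleted cells. In the NK cell-depleted Cxcl10- monocytes 11 of the 15 genes were at 0, and Klrk1 (34.1 CPM) and Klrd1 (11.9 CPM) gave most of the sum. Values without cells with at least 3 UMIs of the 15 genes are given where they change a result. Scrublet, a doublet caller, marked 0 and 3 cells of the libraries, a rate so low that it had not worked, and doublets were therefore treated by leaving out cells over 10000 UMIs (7 and 6 Cxcl10+ monocytes) as an alternative. The libraries shared 5 filtered cell barcodes, none of them a Cxcl10+ monocyte.

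Of the 4 sets of cells, NK cell-depleted Cxcl10+ monocytes had the highest median depth. Cxcl10+ monocytes held a median of 5260 UMIs in control and 6258 after NK cell depletion, against 5098.5 and 5518.5 in Cxcl10- monocytes, and their UMIs summed to 714855 and 537685. Median mitochondrial shares were 3.12% and 4.04% in Cxcl10+ monocytes and 3.41% and 4.04% in Cxcl10- monocytes.

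The first comparison asked how many Ly6c2 monocytes carried Cxcl10 with and without NK cells. In control tumors 19.3% of 647 gated monocytes had Cxcl10 (125 cells, 95% Clopper-Pearson interval 16.3% to 22.6%). In NK cell-depleted tumors the share was 9.56% of 889 (85 cells, interval 7.71% to 11.7%), so the ratio of shares was 2.02 (exact conditional interval 1.52 to 2.69). The gate itself held 12.2% of filtered control cells (interval 11.4% to 13.1%) and 19.7% of NK cell-depleted ones (interval 18.6% to 20.9%). Of all filtered cells, Cxcl10+ monocytes were 2.36% in control (interval 1.97% to 2.81%) and 1.89% after depletion (interval 1.51% to 2.33%), and these intervals overlapped. Gated monocytes had a median of 5145 UMIs in control and 5563 after depletion. With each cell thinned to 2000 UMIs and gated anew, the shares were 16.4% (73 of 446) and 8.81% (56 of 636), at a ratio of 1.86 (interval 1.29 to 2.68). Thinning left out 23 control and 31 NK cell-depleted gated cells with fewer UMIs. Within cells of under 4000 UMIs, of 4000 to under 8000 and of 8000 or more, the control share was 17.3%, 19.5% and 22.3%, and the NK cell-depleted share 7.14%, 9.77% and 11.5%. The control share was the higher one in each depth class, though the intervals overlapped in the shallowest and the deepest.

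**Figure D1:**
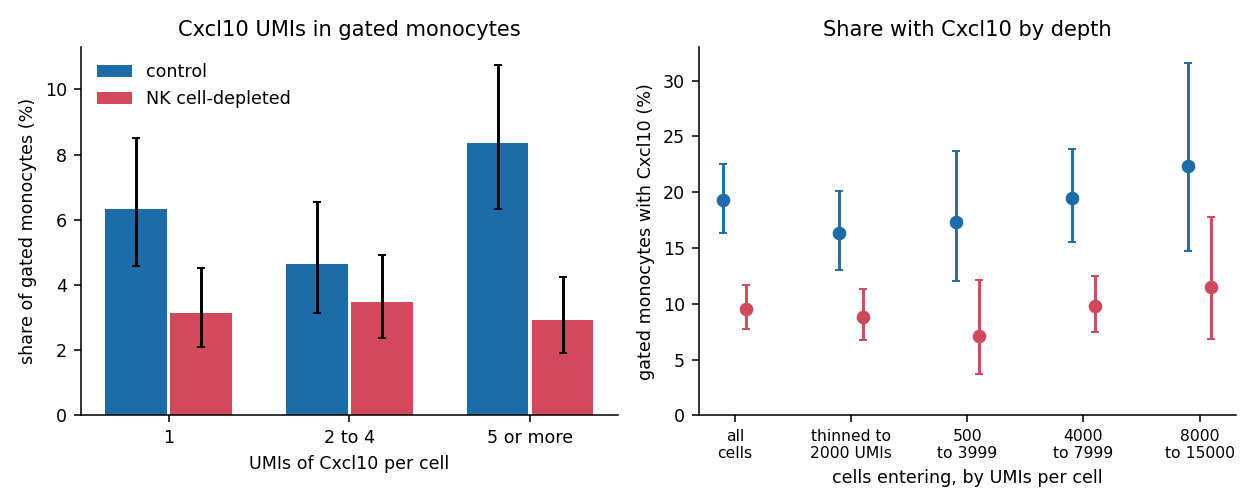
Shares of gated Ly6c2 monocytes by UMIs of Cxcl10 (left, bars, percent of gated cells) and shares with at least 1 UMI of Cxcl10 over all cells, after thinning to 2000 UMIs and by depth class (right, points), with 95% Clopper-Pearson intervals, for control (blue) and NK cell-depleted (red) tumors. The control bar at 5 or more UMIs (8.35%) stands above the NK cell-depleted one (2.92%) without overlap of the intervals, whereas at 2 to 4 UMIs (4.64% and 3.49%) the intervals overlap.

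Lymphocytes of the same libraries served as a background share. Whether Cxcl10 in them came from free RNA was not tested. B cells had Cxcl10 in 0 of 57 control cells (median depth 1643 UMIs, upper Clopper-Pearson bound 6.27%) and 0 of 35 NK cell-depleted cells (median 1778 UMIs, upper bound 10.0%). T cells had it in 10 of 125 (8%, median 2388 UMIs) and 6 of 103 (5.83%, median 2610 UMIs) before thinning, at a lower depth than gated monocytes. At full depth the interval of gated control monocytes lay above that of T cells (3.9% to 14.2%), while after NK cell depletion the T cell interval (2.17% to 12.2%) overlapped that of gated monocytes. At 2000 UMIs per cell both relations changed. Control T cells then had Cxcl10 in 7 of 72 (9.72%, interval 4.0% to 19.0%), which overlapped the interval of gated monocytes (13.1% to 20.1%). NK cell-depleted T cells had it in 0 of 60 (upper bound 5.96%), below the interval of gated monocytes (6.72% to 11.3%). In neither library was the share thus separated from that of T cells at both depths. In the monocytes with Ace and Adgre4 that the gate left out, Cxcl10 was in 8 of 53 control cells (15.1%) and 4 of 112 NK cell-depleted cells (3.57%), a ratio of 4.23 (interval 1.13 to 19.2). Over all cells outside the gate the shares were 6.14% and 5.25%, a ratio of 1.17 (interval 0.969 to 1.41), and 1.36 (1.06 to 1.74) after thinning.

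Cxcl10+ monocytes differed among themselves in how much Cxcl10 they held. The median was 3 UMIs in both libraries, with a maximum of 118 in control and 36 after NK cell depletion. In control, 41 cells had 1 UMI, 30 had 2 to 4 and 54 had 5 or more. After NK cell depletion these numbers were 28, 31 and 26. The cells with 5 or more UMIs made up 8.35% of gated control monocytes (interval 6.33% to 10.7%) and 2.92% of NK cell-depleted ones (interval 1.92% to 4.26%). Cells with 2 to 4 UMIs were 4.64% and 3.49%.

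Cxcl10+ monocytes held 1187 of the 2952 Cxcl10 UMIs of the filtered control library (40.2%) and 419 of 1476 of the NK cell-depleted one (28.4%). They were 30.5% and 30.9% of all cells with Cxcl10. Their mean level was 1660 CPM in control and 779 CPM after depletion. The 5 cells with most Cxcl10 held 33.8% and 30.1% of these UMIs. At the edges of the rule, 16 control and 3 NK cell-depleted Cxcl10+ monocytes had exactly 2 UMIs of Ly6c2, and 27 and 15 cells with Cxcl10 stayed outside with 1. A further 19 and 42 cells with Cxcl10 stayed outside for a UMI of an excluded gene.

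The second comparison described what else Cxcl10+ monocytes expressed. Since the rule itself separated these cells by Cxcl10, all values of Cxcl10+ against Cxcl10- monocytes are descriptions, with no test. UMIs were summed over the cells of each set, and a gene was counted as higher or lower at a ratio of at least 1.5-fold between the CPM of the sums, among genes with at least 100 UMIs over both sums and without the 12 gate genes. In control, 295 of 4881 genes (6.04%) were higher and 327 (6.7%) lower in Cxcl10+ monocytes. After NK cell depletion, 266 of 5906 (4.5%) were higher and 431 (7.3%) lower. Of 4849 genes that passed the minimum in both libraries, 112 were higher in both, which is 39.6% of those higher in control and 56.6% of those higher after depletion. A further 47 were lower in both, 14.4% and 17.8% of the respective genes. Of the 112, 46 belonged to the type I interferon or IFN-gamma lists and 66 to neither, and GAAANNGAAA was in 14.3% of 49 promoters of the latter and in 0 of 32 promoters of the genes lower in both.

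**Figure D2:**
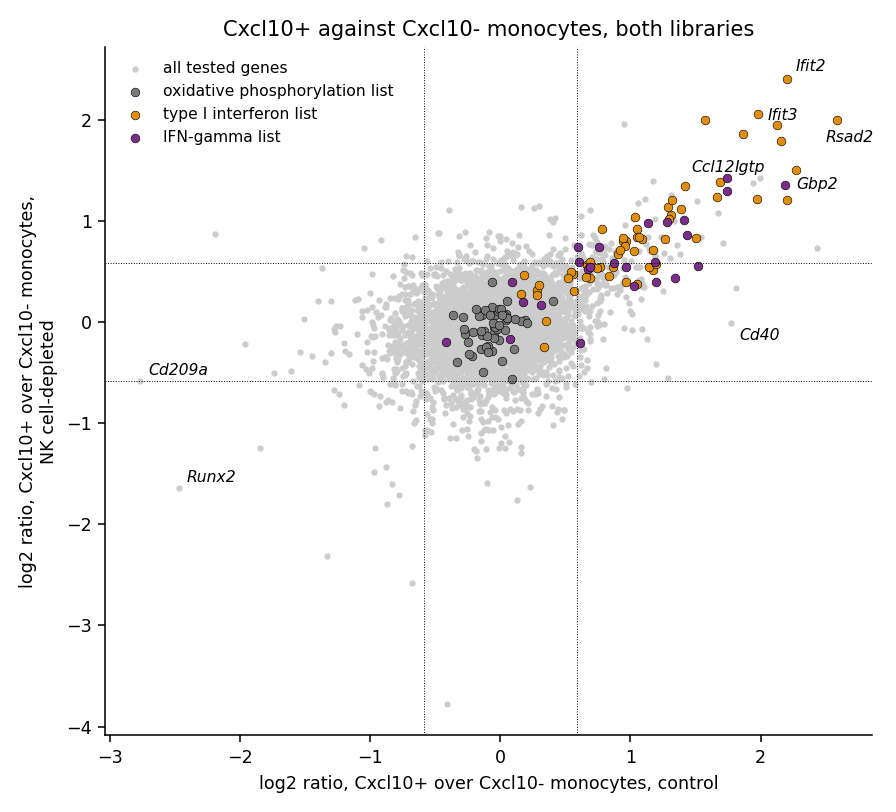
Log2 ratio of CPM, Cxcl10+ over Cxcl10- monocytes, in control (horizontal axis) and NK cell-depleted (vertical axis) tumors, 1 point per gene tested in both libraries, with 3 gene lists in colour and dotted lines at 1.5-fold. Type I interferon genes (orange) and IFN-gamma genes (purple) lie to the upper right, oxidative phosphorylation genes (dark grey) around 0, and Cd40 to the right at a vertical value of -0.01.

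Type I interferon response genes were higher in Cxcl10+ monocytes of both libraries. In control 49 of 60 genes tested were higher and 0 lower, with a median log2 ratio of 1.04 against -0.05 over all genes tested. After NK cell depletion 35 of 58 were higher and 0 lower, with a median of 0.78 against -0.04. The genes of the list summed to 30830 CPM in control Cxcl10+ and 17523 CPM in Cxcl10- monocytes, and to 23934 and 15678 CPM after depletion.

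Rsad2, whose promoter is printed above, had 1064 UMIs in 96 of 125 control Cxcl10+ monocytes (1488 CPM) and 725 UMIs in 202 of 522 Cxcl10- monocytes (247 CPM). In the NK cell-depleted library it had 465 UMIs in 61 of 85 cells (865 CPM) and 1019 UMIs in 334 of 804 cells (217 CPM). The log2 ratio was 2.59 in control and 1.99 after depletion, so Rsad2 marked more of the Cxcl10+ than of the Cxcl10- monocytes (76.8% and 71.8% against 38.7% and 41.5%). One control cell alone held 172 of the 1064 UMIs. Ifit2, which binds viral RNA, had 352 UMIs in 74 control Cxcl10+ monocytes (492 CPM) against 313 in 118 Cxcl10- monocytes (107 CPM), and 154 in 42 cells (286 CPM) against 254 in 132 cells (54.1 CPM) after depletion. Its log2 ratios were 2.21 and 2.40.

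Ifit1 stood at 464 and 106 CPM in control and 227 and 59.1 CPM after depletion, at log2 ratios of 2.13 and 1.95. Ifit3, a partner of Ifit1 and Ifit2, had ratios of 1.98 and 2.05. Cmpk2, a mitochondrial nucleotide kinase that neighbours Rsad2, had 2.16 and 1.79, and Oasl1, an oligoadenylate synthetase-like protein that curbs Irf7 translation, had 1.87 and 1.85. Ifi205 (2.27 and 1.5), Ifi208 (1.57 and 2.00), Slfn9 (2.00 and 1.42), the GTPase Mx1 (1.69 and 1.39) and Usp18 (1.97 and 1.22), which removes Isg15 and dampens interferon signalling, lay in the same range. All of these were past 1.5-fold in both libraries. Ifit, Ifi20x and Slfn genes have close paralogs, and reads that fit several copies may be split or lost, so their single values are uncertain.

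Not every interferon gene followed. Oas2, which makes the activator of RNase L, had log2 ratios of 0.16 and 0.28, and Irf9, the DNA-binding subunit of the type I interferon complex, 0.34 and -0.24. Stat2, a partner of Irf9, was higher in both libraries, at 1.06 and 0.84. Irf7, which amplifies type I interferon transcription, had 1.05 and 0.84.

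IFN-gamma response genes were also higher, though less evenly across the libraries. In control 24 of 29 genes tested were higher and 0 lower, at a median of 1.07. In the NK cell-depleted library 11 of 25 were higher and 0 lower, at a median of 0.55. The list summed to 8225 CPM in control Cxcl10+ and 4597 CPM in Cxcl10- monocytes, and to 5620 and 4120 CPM after depletion. Whether the ratios differ between the libraries was not tested.

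Gbp2, a guanylate-binding GTPase that attacks pathogen vacuoles, had 237 UMIs in 58 control Cxcl10+ monocytes (332 CPM) and 214 in 117 Cxcl10- monocytes (72.9 CPM). The NK cell-depleted library had 56 UMIs of it in 25 cells (104 CPM) and 192 in 113 cells (40.9 CPM), and the log2 ratios were 2.18 and 1.36. Gbp4 of the same family had 103 UMIs in 46 control Cxcl10+ monocytes (144 CPM) against 86 in 64 Cxcl10- monocytes (29.3 CPM), a log2 ratio of 2.30. After depletion it had 6 UMIs in 5 of 85 cells (11.2 CPM) and 60 in 47 of 804 (12.8 CPM), under the minimum of 100 UMIs. The share of cells with Gbp4 was thus 36.8% against 12.3% in control, and 5.88% against 5.85% after depletion. Gbp2 and Gbp4 had in common a level that was highest in control Cxcl10+ monocytes, but Gbp2 was also higher in Cxcl10+ cells after depletion. There, 36 of its 56 UMIs lay in the 26 cells with 5 or more UMIs of Cxcl10.

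Among the immunity-related GTPases, Igtp stood at 166 and 49.7 CPM in control and 87.4 and 32.8 CPM after depletion, at log2 ratios of 1.74 and 1.42. Irgm1 had 1.18 and 0.59, and Ifi47 had 1.44 and 0.86. The guanylate-binding Gbp3, Gbp7 and Gbp9 had 1.41, 1.13 and 1.28 in control and 1.01, 0.98 and 0.99 after depletion, and the membrane protein Fam26f 1.74 and 1.29. Irf1, a transcription factor induced by IFN-gamma, had 1.52 in control and 0.55 after depletion, and Nlrc5, which drives MHC class I genes, 1.02 and 0.35. Ciita, the activator of MHC class II genes, was on the other side of 0 in both (-0.42 and -0.20). Cxcl9, the other IFN-gamma-induced ligand of Cxcr3, had 84 UMIs in 16 of 125 control Cxcl10+ monocytes (118 CPM) and 114 UMIs in 9 of 522 Cxcl10- monocytes (38.8 CPM). After depletion it had 0 UMIs in 85 Cxcl10+ monocytes and 23 UMIs in 4 Cxcl10- monocytes. Cxcl9 was therefore a gene of few cells, even where Cxcl10 was present.

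Levels of the interferon lists were higher where cells held more Cxcl10. In control the type I list stood at 17523 CPM in cells with 0 UMIs of Cxcl10, 22515 with 1, 31896 with 2 to 4 and 36806 with 5 or more. The same steps in the NK cell-depleted library were 15678, 20490, 23383 and 28259 CPM. The IFN-gamma list ran from 4597 over 5942 and 8010 to 10130 CPM in control and from 4120 over 5076 and 5540 to 6296 CPM after depletion. Rsad2 followed in both libraries (247, 657, 1338 and 2219 CPM in control, 217, 405, 521 and 1776 CPM after depletion).

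Other genes did not follow that order in both libraries. Gbp2 had 72.9, 164, 280 and 490 CPM in control, but 40.9, 81.0, 29.8 and 220 CPM after depletion. Ccl12 had 142, 525, 143 and 770 CPM in control and 69.3, 86.8, 337 and 79.6 CPM after depletion. Gbp4 had 29.3, 65.7, 205 and 174 CPM in control and lay between 4.96 and 18.4 CPM after depletion. Oxidative phosphorylation genes, taken as a group that the rule has no tie to, stayed between 14945 and 15877 CPM in control and between 12519 and 13251 CPM after depletion.

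**Figure D3:**
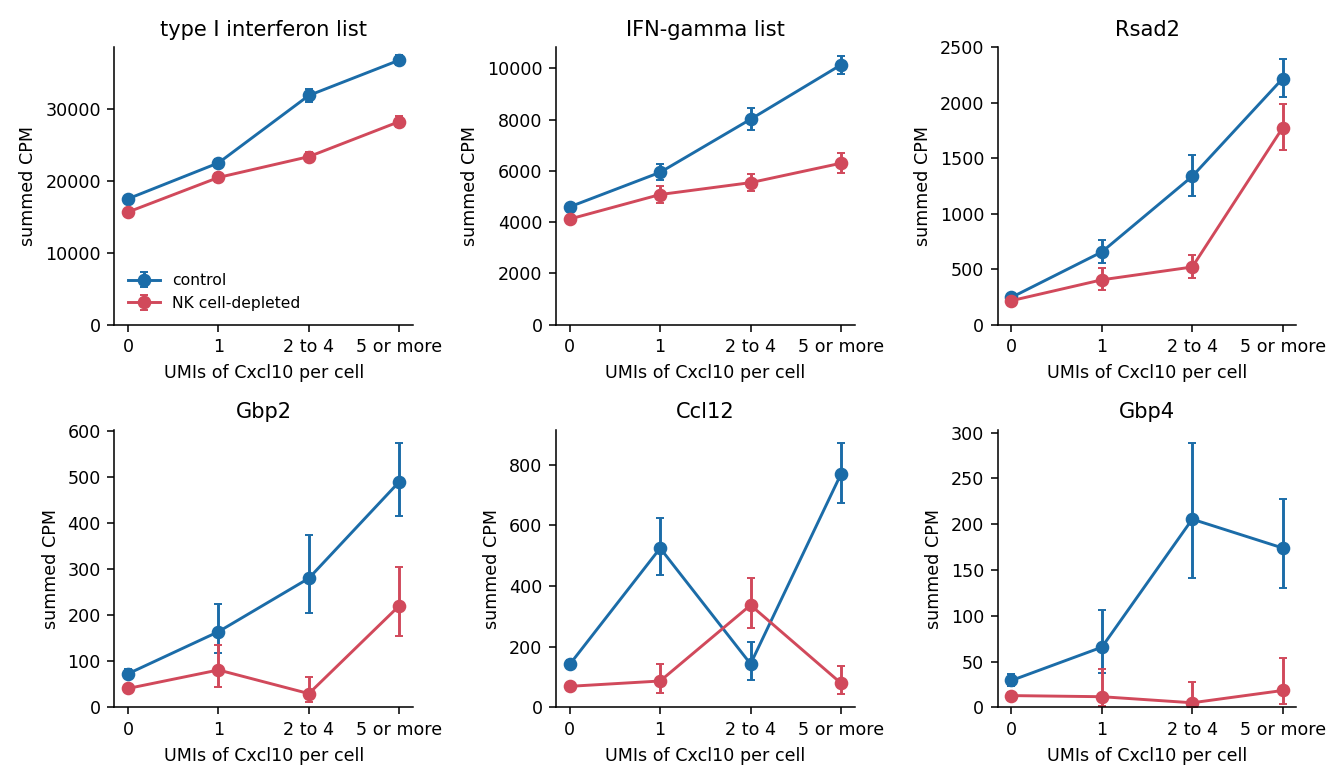
Summed CPM of the type I interferon list, the IFN-gamma list, Rsad2, Gbp2, Ccl12 and Gbp4 in gated monocytes with 0, 1, 2 to 4 and 5 or more UMIs of Cxcl10, with 95% exact Poisson intervals, for control (blue) and NK cell-depleted (red) tumors. Both lists are higher at each step, up to 36806 and 28259 for the type I list, while Ccl12 has no such order and Gbp4 stays under 18.5 in NK cell-depleted tumors.

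Cell by cell the sets overlapped. The type I list ranged from 2028 to 84460 CPM in control Cxcl10+ monocytes (median 31113) and from 1225 to 56033 CPM in Cxcl10- monocytes (median 16831). In the NK cell-depleted library the Cxcl10+ range was 4774 to 59971 CPM (median 22605), and the Cxcl10- range 1580 to 48070 CPM (median 14345). Of the Cxcl10+ monocytes, 102 of 125 (81.6%) and 68 of 85 (80%) lay above the median of their Cxcl10- monocytes. For the IFN-gamma list, 104 (83.2%) and 72 (84.7%) did. Medians of that list were 7592 and 4048 CPM in control and 5247 and 3790 CPM after depletion. The 2 lists went together across Cxcl10+ monocytes, at a Spearman rho of 0.68 over 125 control cells and 0.69 over 85 NK cell-depleted cells, all of 1 library each.

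**Figure D4:**
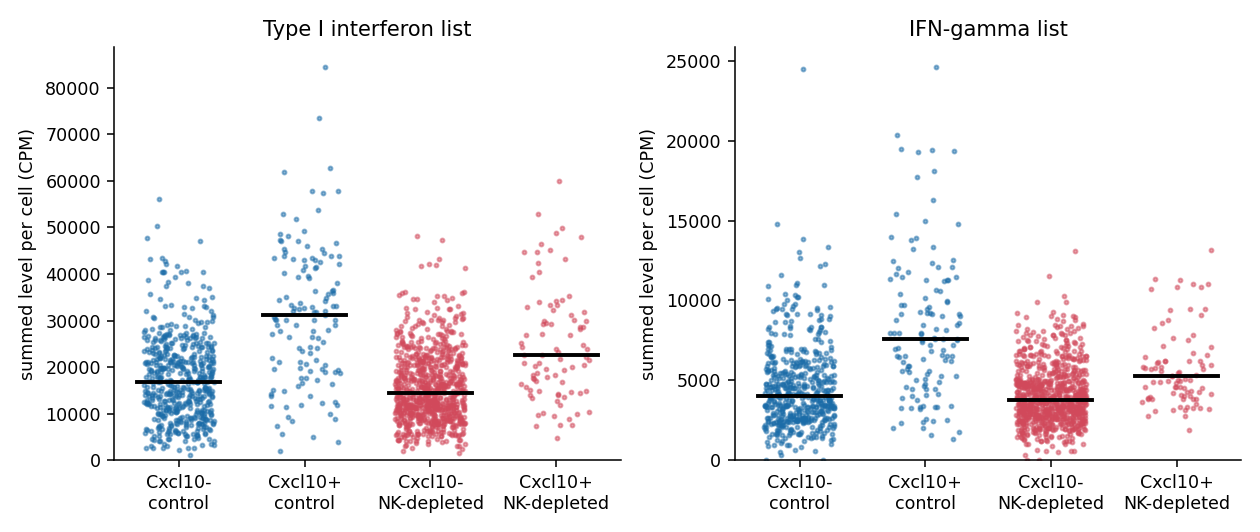
Summed level of the type I interferon list and of the IFN-gamma list per cell (CPM) in Cxcl10+ and Cxcl10- monocytes of control and NK cell-depleted tumors, 1 point per cell, with the median as a black line. Medians of the type I list are 31113 and 16831 in control and 22605 and 14345 in NK cell-depleted tumors, and the point clouds overlap.

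Of 15 interferon receptor and signalling genes tested, 0 were higher and 1 lower in control, at a median of 0.06, and 0 were higher and 0 lower after NK cell depletion, at -0.07. The gene lower in control was Ifngr1, the ligand-binding chain of the IFN-gamma receptor, which stood at 210 CPM in Cxcl10+ and 328 CPM in Cxcl10- monocytes (log2 ratio -0.64) and at 344 and 405 CPM after depletion (-0.23). Its partner Ifngr2 had 0.01 and -0.03, and the type I receptor chains Ifnar1 and Ifnar2 had 0.27 and 0.02 in control and 0.17 and 0.01 after depletion. Jak1, the kinase both receptors use, had 0.07 and -0.13. Jak2, the second kinase of the IFN-gamma receptor, was counted with the IFN-gamma list, and it had 0.62 in control (82.5 against 54.2 CPM, past 1.5-fold) and -0.21 after depletion. Interferon transcripts themselves were scarcely found: Ifnb1 had 0 UMIs in all gated cells, and Ifng had 5 UMIs, all in 1 control Cxcl10- monocyte.

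Sensors of viral nucleic acid on the type I interferon list were among the genes higher in control. Ddx58, the RNA sensor RIG-I, had log2 ratios of 1.30 and 1.02, Ifih1, the RNA sensor MDA5, 1.39 and 1.11, and Zbp1, which binds Z-form nucleic acid, 1.05 and 0.38. A separate list of sensing genes had 3 of 15 higher and 1 lower in control, at a median of 0.27, and 1 of 17 higher after depletion, at 0.16. Mb21d1, the DNA sensor cGAS, was the one higher in both (1.24 and 0.84, and -0.23 after thinning in the NK cell-depleted library). Myd88, the adaptor of Toll-like receptors, had 0.69 and 0.10, and the kinase Tbk1 0.90 and 0.28.

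Few antigen presentation genes passed 1.5-fold. The MHC class I list had 3 of 20 genes higher in control (median 0.41) and 2 of 19 after NK cell depletion (median 0.27), with 0 lower. Most of its ratios were above 0, at 19 of 20 in control and 17 of 19 after depletion. Its genes summed to 14320 CPM in control Cxcl10+ and 11456 CPM in Cxcl10- monocytes, and to 14211 and 12159 CPM after depletion. H2-T22, a nonclassical class I chain, had 0.95 and 0.61, the peptide transporter Tap1 0.69 and 0.50, and B2m, the common light chain, 0.31 and 0.20. H2-T22 and H2-Q7 (0.40 and 0.99) have near-identical copies, so their values are uncertain. The MHC class II list had 1 of 12 higher in control (median 0.14) and 0 of 12 after depletion (median 0.03), and its invariant chain Cd74 had 0.16 in both. The gene higher in control was Cd40, a receptor through which T cells activate antigen-presenting cells. It had 139 UMIs in 61 control Cxcl10+ monocytes (194 CPM) against 167 in 117 Cxcl10- monocytes (56.9 CPM), but 32 in 19 cells (59.5 CPM) against 285 in 210 cells (60.8 CPM) after depletion. The log2 ratio was 1.77 in control and -0.01 after depletion, and 48.8% of control Cxcl10+ monocytes had Cd40 against 22.4%, 22.4% and 26.1% of the other 3 sets. That difference between the ratios was not tested. After thinning to 2000 UMIs the Cd40 ratios were 2.31 and 1.0, while the NK cell-depleted ratio stayed between -0.16 and 0.22 under the other alternatives.

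Chemokine genes tended to be higher beside Cxcl10, with 8 of 13 higher and 1 lower in control (median 0.67) and 6 of 13 higher and 1 lower after depletion (median 0.57). Ccl12, a Ccr2 ligand, had 390 UMIs in 49 control Cxcl10+ monocytes (546 CPM) against 416 in 110 Cxcl10- monocytes (142 CPM), and 96 in 21 cells (179 CPM) against 325 in 101 (69.3 CPM) after depletion. Its log2 ratios were 1.94 and 1.37. Ccl2, the main Ccr2 ligand, stood at 1760 and 1083 CPM in control and 2347 and 1500 CPM after depletion (0.70 and 0.65), and Ccl7, another, had 0.62 and 0.69. Ccl3, a ligand of Ccr1, had 0.87 and 0.61, and -0.26 after thinning in the NK cell-depleted library. Ccl4, an inflammatory chemokine, had 2096 and 927 CPM in control and 1635 and 1105 CPM after depletion (1.18 and 0.57). These Ccr2 ligands thus passed 1.5-fold in both libraries, and Ccl4 fell just short of it after depletion. The NK cell-depleted value of Ccl2 became 0.08 in cells of 3000 to 8000 UMIs, and those of Ccl2 and Ccl7 fell under 1.5-fold after thinning, at 0.57 and 0.51.

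One chemokine lay on the other side. Pf4, platelet factor 4, which macrophages also make, had 365 CPM in control Cxcl10+ and 716 CPM in Cxcl10- monocytes, and 68.8 and 195 CPM after depletion, at log2 ratios of -0.97 and -1.49 (-0.43 and -1.71 after thinning). Ccl5, a chemokine made mainly by NK and T cells, had 134 UMIs in 14 control Cxcl10+ monocytes, 121 of them in 5 cells, against 90 in 28 Cxcl10- monocytes (2.61). After depletion it had 2 UMIs in 2 Cxcl10+ cells. The transmembrane chemokine Cxcl16 had 0.67 in control and -0.09 after depletion.

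Chemokine receptors and adhesion molecules were near the level of all genes, with 2 of 13 higher and 1 lower in control (median -0.10) and 0 higher and 1 lower after depletion (median -0.17). Ccrl2, a scavenging receptor, had 1.05 and 0.40. Cx3cr1, the fractalkine receptor that rises as monocytes patrol or mature, stood at 83.9 and 147 CPM in control (-0.80) and at 186 and 183 CPM after depletion (0.03).

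Cytokine genes had 5 of 13 higher and 0 lower in control (median 0.23) and 3 higher and 2 lower after depletion (median 0.16). Il15, which sustains NK and CD8 T cells, had 0.69 and 1.11, past 1.5-fold in both. The anti-inflammatory Il10 had 0.95 and 1.95, but on 12 control and 7 NK cell-depleted Cxcl10+ monocytes, with 31 of its 65 UMIs in 1 cell of the latter, where it changed sign after thinning. Tnf had 1.12 and 0.56, and Il1rn, the interleukin-1 receptor antagonist, 0.99 and 0.19. Il1b did not differ by 1.5-fold (0.06 and 0.16). Of the checkpoint list, 2 of 12 were higher and 1 lower in control and 0 of 13 higher and 1 lower after depletion. Cd274, the checkpoint ligand PD-L1, had 56 UMIs in 29 control Cxcl10+ monocytes against 68 in 52 Cxcl10- monocytes (1.76), and 6 in 5 cells against 50 in 36 after depletion, under the minimum. Lgals9, galectin-9, had 0.74 and 0.52, and Arg1, arginase, had -1.30 and 0.21.

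NF-kB response genes were higher in control in 13 of 31 (0 lower, median 0.51) and after NK cell depletion in 3 of 29 (0 lower, median 0.34). The 3 that passed in both were Nfkbia, the inhibitor that NF-kB itself induces (0.65 and 0.63), Gadd45b, an antiapoptotic stress gene (0.70 and 0.62), and Marcksl1, an actin regulator (0.85 and 0.78). Tnfaip3, the feedback enzyme A20, had 0.37 and 0.43, and Cflar, which blocks caspase-8, 0.80 and 0.38. Immediate early and heat shock genes, which respond to tissue dissociation, did not separate the sets: 0 of 28 were higher and 1 lower in control (median 0.09), and 2 higher and 2 lower after depletion (median 0.06).

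Hypoxia and glycolysis genes lay on the lower side. In control 0 of 28 were higher and 5 lower (median -0.35), and after depletion 1 of 27 was higher and 7 lower (median -0.41). Bnip3, a mitophagy receptor, had -0.67 and -0.99, Fam162a, a hypoxia-induced mitochondrial protein, -0.77 and -0.85, and the glycolytic enzymes Pgk1 and Eno1 -0.52 and -0.15 in control and -0.55 and -0.59 after depletion. Oxidative phosphorylation genes were 0 of 54 higher and 0 lower in both libraries, with a median of -0.05 in each.

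Maturation genes were spread around 0. The macrophage list had 1 of 30 higher and 5 lower in control (median -0.03) and 0 higher and 5 lower after depletion (median -0.18). The lysosomal protease Ctsl had -0.76 and -0.68, the lipid carrier Fabp5 -0.72 and -0.68, and the TGF-beta receptor chain Tgfbr1 -0.97 and -1.25. The complement component C1qb had 0.26 and 0.02 and Apoe, a lipoprotein of macrophages, 0.15 and -0.42. The classical monocyte list had 3 of 32 higher and 1 lower in control and 1 higher and 4 lower after depletion, and the nonclassical list 0 of 9 higher and 1 lower, then 0 of 10 higher and 3 lower.

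Among the 12 genes lowest in Cxcl10+ monocytes of both libraries, Pf4 was the most abundant, followed by the G protein regulator Rgs1, at 238 against 439 CPM in control and 201 against 350 CPM after depletion (-0.88 and -0.80). The other 10, Tgfbr1 among them, lay at 63.0 CPM (Bcl11a in control Cxcl10- monocytes) or lower in each set. Runx2, an osteogenic transcription factor, had 4 UMIs in 125 control Cxcl10+ monocytes against 102 in the Cxcl10- ones, and log2 ratios of -2.47 and -1.64. Bcl11a, a transcription factor of B cells and plasmacytoid dendritic cells, had -1.85 and -1.25. The chromatin remodeller Smarca2 (-1.33 and -2.31), the integrin chain Itga6 (-0.87 and -1.80), the immunoreceptor Cd244 (-0.88 and -1.43) and the TGF-beta inhibitor Smad7 (-1.20 and -0.82) were of like size, with Cds2 (-0.83 and -1.60), Chsy1 (-0.93 and -0.83) and Slmap (-0.84 and -0.80). Cd209a, a lectin of monocyte-derived dendritic cells, had 434 UMIs in 66 control Cxcl10- monocytes against 15 in 4 Cxcl10+ monocytes, and its control log2 ratio was -2.77. Siglech of the dendritic cell list had 22.5 and 6.61 CPM in control and NK cell-depleted Cxcl10- monocytes. It had 0 in Cxcl10+ monocytes, and 7.70 and 3.72 CPM outside the gate. Flt3 had 4.20 against 16.7 CPM in control and 1.86 against 19.2 CPM after depletion. Of 6 genes of that list tested, 4 in control and 3 after depletion had ratios above 0. Whether dendritic cells in the gate gave the lower values was not tested. Without gated cells with Cd209a or neutrophil genes, the control medians were 1.03 for the type I list and 0.98 for the IFN-gamma list.

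The third comparison set Cxcl10+ monocytes of control tumors beside those of NK cell-depleted tumors. Of 2140 genes with at least 100 UMIs over both sums, 137 (6.4%) were higher and 133 (6.21%) lower in control, at a median log2 ratio of -0.04. In Cxcl10- monocytes, which are many more, 213 of 6875 (3.1%) were higher and 213 (3.1%) lower, at a median of -0.05. These values use the same control Cxcl10+ cells as the ratios above, so they are not independent of them. No test was possible with 1 library per group.

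IFN-gamma response genes were higher in control Cxcl10+ monocytes. Of 21 genes tested 13 were higher and 0 lower, at a median of 0.70, while in Cxcl10- monocytes 8 of 30 were higher and 0 lower, at a median of 0.26. Gbp2 was 3.18-fold higher in control Cxcl10+ monocytes (interval 2.37 to 4.34) and had a log2 ratio of 0.83 in Cxcl10- monocytes. Gbp4 was 12.9-fold higher (interval 5.73 to 36), from the 103 and 6 UMIs given above. Cxcl9, with 84 and 0 UMIs and thus under the minimum, was at least 21.1-fold higher, taking 3 UMIs over the group as the floor. Of the 84 UMIs, 57 lay in 5 cells. In Cxcl10- monocytes Cxcl9 also differed, at 38.8 CPM in control and 4.90 CPM after depletion. Irf1 was 2.04-fold higher and Igtp 1.90-fold (interval 1.35 to 2.73). Cd74 was 1.61-fold higher, and H2-Aa, a class II chain, had a log2 ratio of -0.01. Ifngr1 again went the other way, at 0.61 times its level after depletion (interval 0.488 to 0.761).

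The IFN-gamma median between libraries was lower when gated cells with transcripts of the NK cell list were left out. The NK cell list stood at 178 CPM in control and 27.9 CPM in NK cell-depleted Cxcl10+ monocytes, as given above, and T cell genes at 83.9 and 13 CPM. Klrk1 of the NK cell list gave 75.5 of the 178 CPM, and 2 of the 15 genes, Ifng and Eomes, were at 0 there. Whether these transcripts came from NK cells was not tested. Without the cells with at least 3 UMIs of the NK cell list the IFN-gamma median was 0.53 in place of 0.70. Over all 12 alternatives this median lay between 0.45 and 0.92. Without the same cells Ccl5 had a log2 ratio of 4.69 in place of 5.34 between libraries, and 3.15 in place of 2.61 within control.

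The type I interferon list was less far from the level of all genes. Of 57 genes 18 were higher in control and 0 lower, at a median of 0.36, and in Cxcl10- monocytes 6 of 59 were higher, at 0.09. Isg15, a ubiquitin-like modifier, stood at 1150 CPM in control and 493 CPM in NK cell-depleted Cxcl10+ monocytes, 2.33-fold higher, with 362 and 210 CPM in the Cxcl10- ones. Ifit1 was 2.05-fold higher (interval 1.66 to 2.54). Ifit1bl1, an Ifit1 paralog, had 88 UMIs in 39 control and 13 in 8 NK cell-depleted Cxcl10+ monocytes and was 5.09-fold higher (interval 2.83 to 9.94). Isg20, an exonuclease, had a log2 ratio of 1.27.

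Rsad2 and Ifit2 were each 1.72-fold higher in control. The log2 ratio of Rsad2, 0.78, became 0.24 in cells of 3000 to 8000 UMIs and 0.01 after thinning to 2000 UMIs, both of which also change which cells enter. Oasl1 (0.32), Mx1 (0.39), Stat2 (0.24), Slfn4 (-0.08) and Oas2 (-0.44) did not pass 1.5-fold. Type I genes that strongly marked Cxcl10+ monocytes within each library thus included several whose levels lay within 1.5-fold of each other between the libraries.

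**Figure D5:**
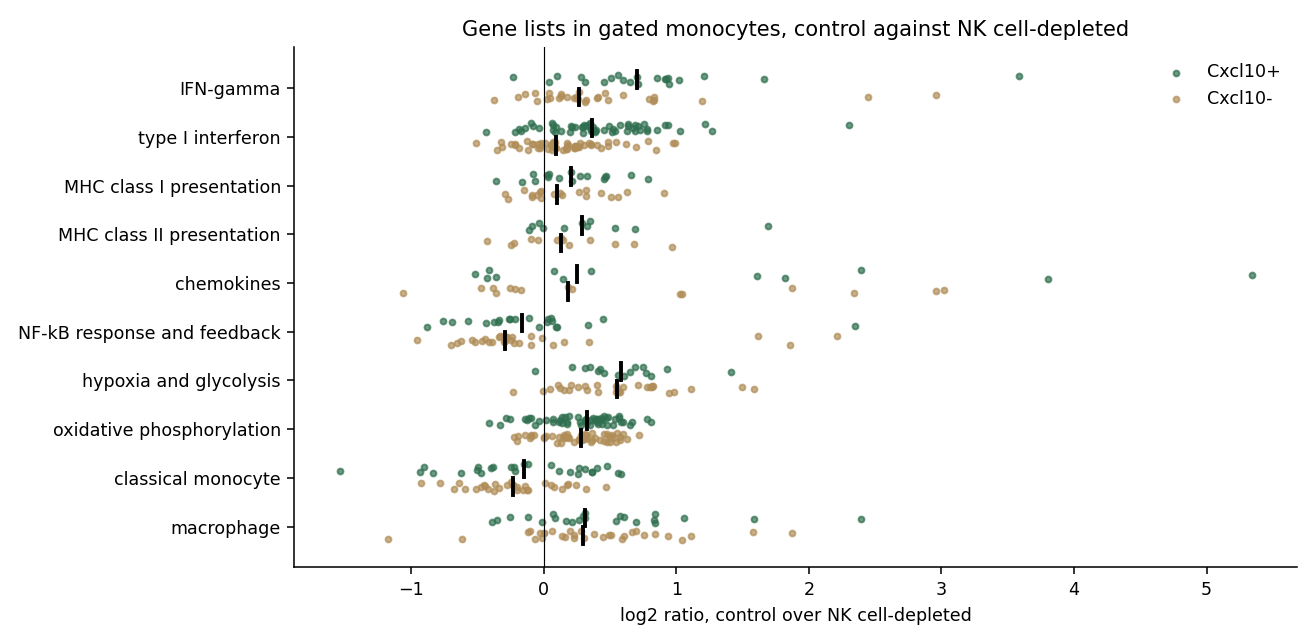
Log2 ratio of control over NK cell-depleted tumors for the genes of 10 lists in Cxcl10+ and Cxcl10- monocytes, 1 point per gene tested and a black bar at the median of each list. The IFN-gamma list has medians of 0.70 and 0.26, the type I interferon list 0.36 and 0.09, and the hypoxia and glycolysis list 0.58 and 0.55.

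Of 12 chemokine genes tested, 5 were higher in control and 0 lower, at a median of 0.25. Ccl12 was 3.06-fold higher (interval 2.44 to 3.86), Cxcl16 3.57-fold and Pf4 5.31-fold. Ccl8, a chemokine of resident macrophages, had 194 UMIs in 13 control Cxcl10+ monocytes, 68 of them in 1 cell, against 10 UMIs in 1 NK cell-depleted cell, and was 14.6-fold higher (interval 7.77 to 30.9). Ccl5, at 134 and 2 UMIs, was 50.4-fold higher (interval 13.7 to 420), with 121 of the 134 UMIs in 5 cells. Ccl2 (-0.42), Ccl4 (0.36) and Ccl7 (0.15) stayed within 1.5-fold. Cxcl16, Pf4, Ccl8, Ccl12 and Ccl5 also had log2 ratios of 1.05, 1.87, 3.02, 1.03 and 2.34 in Cxcl10- monocytes. Their difference between libraries was thus not confined to cells with Cxcl10.

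Cd40 was different in that respect. It was 3.27-fold higher in control Cxcl10+ monocytes (interval 2.21 to 4.96), at a log2 ratio of 1.69, and had -0.09 in Cxcl10- monocytes. Cd274 was 7.02-fold higher (interval 3.03 to 19.9) on 56 and 6 UMIs, under the minimum, and had a log2 ratio of 1.12 in Cxcl10- monocytes. AW112010, a transcript induced by inflammatory stimuli, was 7.56-fold higher (interval 4.87 to 12.3), with 1.41 on the log2 scale in Cxcl10- monocytes. The lectin Mgl2 had 2.78, the metalloprotease Mmp14 1.91, the cyclin Ccnd2 1.67 and Bcl2a1b, an antiapoptotic gene with near-identical copies and therefore uncertain, 2.35. In Cxcl10- monocytes the respective values were 2.00, 1.01, 1.08 and 1.62, so these differences were not confined to cells with Cxcl10.

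The 12 genes lowest in control Cxcl10+ monocytes, relative to the NK cell-depleted ones, included a pair of nuclear receptors. Nr4a1, which is induced by acute signals and needed for nonclassical monocytes, stood at 513 CPM in control and 1209 CPM after depletion, 0.425 times as high (interval 0.373 to 0.483), and had a log2 ratio of -0.99 in Cxcl10- monocytes. Nr4a2 was at 0.398 times (interval 0.327 to 0.483). Immediate early and heat shock genes as a list had 3 of 25 higher and 7 lower, at a median of -0.26, and since these genes also respond to tissue dissociation, their part in other differences between the libraries was not tested. NF-kB genes had 1 of 22 higher and 3 lower (median -0.16), with Tnfaip3 at -0.76.

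Cx3cr1 was at 0.451 times its NK cell-depleted level, and Thbs1, thrombospondin, had a log2 ratio of -0.93. Tnfsf9, the ligand of 4-1BB, had -1.25, on 40 UMIs in control, and turned with thinning to 1.0. Lyz1 had -1.54, but 1 NK cell-depleted cell held 54 of its 90 UMIs there. Sgms1 (-1.42), AC160336.1 (-1.22), Ssh2 (-1.17), Dennd4a (-1.15), Tob2 (-1.09), Prkcb (-1.06) and Fam102b (-1.01) were the others of the 12 lowest. The nonclassical monocyte list had 0 of 5 higher and 3 lower, at a median of -0.63.

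Hypoxia and glycolysis genes had 8 of 16 higher in control Cxcl10+ monocytes and 0 lower (median 0.58), and 12 of 30 higher in Cxcl10- monocytes (median 0.55). Eno1 was 2.70-fold higher, Ldha, lactate dehydrogenase, had a log2 ratio of 0.75 and Mif, a cytokine that hypoxia induces, 0.81. Oxidative phosphorylation genes had 5 of 53 higher (median 0.33) and 3 of 54 in Cxcl10- monocytes (median 0.28), beside the 6.4% and 3.1% of all genes tested. The macrophage list had 8 of 23 higher and 0 lower (median 0.31), and in Cxcl10- monocytes 11 of 32 higher and 2 lower (median 0.29). Pf4, which is on this list as well as on the chemokine list, had the largest ratio in Cxcl10+ monocytes, followed by Ms4a7 at 3.02-fold, and Apoe was 2.09-fold higher. Spp1, osteopontin, had 1.27, with 101 of its 136 control UMIs in 1 cell.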

How the data were processed

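Live CD45+ cells of 2 pooled-tumor samples were sequenced with droplet 3′ chemistry. The authors aligned reads to mm10 with Cell Ranger and deposited raw UMI counts per gene and cell. Cells were filtered with the limits that the study states (500 to 15000 UMIs, 200 to 4000 genes, at most 10% mitochondrial UMIs). The members and gene lists were chosen with earlier results of these data known. UMI counts were summed over the cells of a set and compared as the log2 ratio of CPM with 0.5 UMI added to each sum. Ratios have exact conditional binomial intervals and shares Clopper-Pearson intervals, which cover counting error only. With 1 library per group no test was run. Named genes were list members, the 12 genes per direction with the largest ratio shared by both libraries, and the 12 per direction between libraries, of those with at least 100 UMIs. The interval code was tested on simulated counts. Promoters came from RefSeq (GRCm38.p6). Python 3.11.15, numpy 2.4.6, pandas 2.3.3, scipy 1.17.1 and scanpy 1.11.5 were used. Among the alternatives, 9 kinds were planned and 3 were chosen after seeing the data: leaving out the 5 cells with most Cxcl10, cells with NK cell genes, and cells with Cd209a or neutrophil genes.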

Additional observations from a re-analysis of the deposited data

Results flagged for a closer look

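A few genes passed 1.5-fold in opposite directions in the 2 libraries when Cxcl10+ were set against Cxcl10- monocytes, and the differences between the ratios were not tested. Higher in control and lower after NK cell depletion were Hivep3, a zinc finger regulator (log2 ratios 0.98 and -0.65), and Bbx, an HMG-box protein (0.70 and -0.59). Lower in control and higher after depletion were Tmem63a (-0.73 and 0.65), 1700037H04Rik (-0.92 and 0.81), Mesd (-0.66 and 0.84), Mxi1, a Myc antagonist (-1.05 and 0.73), Hilpda, a hypoxia-induced lipid droplet protein (-0.68 and 0.64), and Retnla, a gene of alternatively activated macrophages (-2.20 and 0.87). Hilpda had 16 of its 23 UMIs in NK cell-depleted Cxcl10+ monocytes in 1 cell, Mxi1 21 of 33 and Retnla 62 of 76.

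The filter set aside 212 control and 353 NK cell-depleted cells above the upper limits of UMIs or genes. Among them 14 and 17 passed the monocyte gate, and Cxcl10 was present in 5 of 14 in control (35.7%, interval 12.8% to 64.9%) and in 2 of 17 after depletion (11.8%). These cells entered no comparison.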

How the results depend on the processing

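No paired analysis was possible because each group was 1 library, and for the same reason no replicate could be left out. The ratio of shares with Cxcl10 lay between 1.86 and 2.15 over 8 alternatives. Numbers of genes past 1.5-fold followed the depth and the minimum of UMIs, which set how many genes enter. For Cxcl10+ over Cxcl10- monocytes in control the 622 genes became 261 after thinning to 2000 UMIs, 1906 at a minimum of 20 UMIs and 4203 with no minimum, and the 697 of the NK cell-depleted library became 372, 2059 and 5215. Between libraries the 270 genes became 57, 1484 and 4967, and 179 in cells of 3000 to 8000 UMIs. The type I list median within control was 1.22 in place of 1.04 with at least 2 UMIs of Cxcl10. Within the NK cell-depleted library it was 0.91 in place of 0.78 in cells of 3000 to 8000 UMIs, and 0.84 with at least 2 UMIs of Cxcl10, without cells over 10000 UMIs, or as the mean of per-cell CPM. Between libraries it was 0.30 in place of 0.36 as that mean. In cells of 3000 to 8000 UMIs the IFN-gamma median was 0.76 in place of 0.55 within the NK cell-depleted library and 0.45 in place of 0.70 between libraries. The cause of these moves was not tested.

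Of the named genes past 1.5-fold (84 and 62 within the control and NK cell-depleted libraries, 58 between libraries), 83, 57 and 57 kept their direction after thinning, and 70, 42 and 44 stayed past 1.5-fold. Single genes changed sign. Itga6 in control was 0.86 after thinning. After NK cell depletion Lyz1 was -0.0186 in cells of 3000 to 8000 UMIs, Il10, Mb21d1, Ccl3 and Tnfsf9 were -2.78, -0.23, -0.26 and -1.38 after thinning, Cd209a was 0.12 without cells with Cd209a or neutrophil genes, and Retnla was -0.47 after thinning, -0.50 in cells of 3000 to 8000 UMIs and -1.07 with at least 2 UMIs of Cxcl10. Between libraries Tnfsf9 was 1.0 after thinning.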
